A study of Mus musculus with 9 samples.

Results

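A set of 40 genes was followed that marks cell cycle entry, DNA replication and mitosis in the mouse atrioventricular (AV) node, the small region of the heart through which the electrical impulse passes from atria to ventricles. They were chosen by symbol from the deposited table, which holds 34198 symbols, and all 40 were found. Bulk RNA-seq was made from microdissected AV nodes of C57BL/6J mice, with 3 biological replicates in each of 3 groups. Control nodes carried the genotype labelled Control. Cx3cr1 Cx43-/- nodes came from mice lacking connexin 43, the gap junction protein encoded by Gja1, in cells that use the macrophage gene Cx3cr1, which monocytes and some lymphocytes use too. Macrophage-depleted nodes came from Cd11bDTR mice, which carry a diphtheria toxin receptor (DTR) under the promoter of the myeloid gene Cd11b (Itgam), so that toxin can act on Cd11b-expressing cells of any myeloid type. Age, sex, toxin dose, the time after toxin, whether controls received toxin, and any pooling of mice are not given in the sources used here.

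A resting cell enters the cycle when D-type cyclins, with their kinase partners, release E2F transcription factors from the retinoblastoma family. E2F targets then load and fire the MCM helicase and supply nucleotides for DNA synthesis, while the inhibitors p21 (Cdkn1a) and p27 (Cdkn1b) hold the cyclin-dependent kinases (CDKs) back. Late genes, switched on after replication, build the spindle and separate the chromosomes, and are repressed in resting cells by the DREAM complex acting at CHR elements in their promoters. Adult heart muscle cells rarely divide, and most cycling cells of an adult heart are macrophages, fibroblasts, endothelial cells and blood-derived cells.

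Values are CPM, read counts scaled to the size of each library, which are not corrected for gene length, so levels are compared between libraries and never between genes. From the spacing of low values, 1 CPM stood for 51.8 to 65.0 reads. All 34198 symbols together took up 42.8 to 48.7% of the CPM total in the 6 control and Cx3cr1 Cx43-/- libraries. Their share was 44.0, 37.7 and 28.3% in the depleted libraries. The dissection was checked with node markers. Hcn4, the pacemaker channel gene, stood at 15.45 to 19.26 CPM in controls and at 1.80 to 3.80 CPM after depletion, and Tbx3 at 30.06 to 37.91 and 11.63 to 16.31 CPM, while Isl1 stayed at or below 0.21 CPM in all 9 libraries. Gja1 stood at 246, 163 and 211 CPM in controls, 179, 229 and 250 CPM in Cx3cr1 Cx43-/- nodes and 89.9, 56.8 and 68.3 CPM in depleted nodes, so the whole-node level did not separate the Cx3cr1 Cx43-/- libraries from controls. Itgam itself stood at 8.93, 1.64 and 5.37 CPM in controls and 9.72, 2.34 and 7.35 CPM in depleted nodes, which overlap (log2 change 0.31, SE 0.44, limma adjusted p = 0.591). The 13 resident macrophage markers summed to 257 to 408 CPM in controls, 397 to 532 CPM in Cx3cr1 Cx43-/- nodes and 66.6 to 75.7 CPM in depleted nodes. In whole tissue, fewer cells of a type and less RNA per cell cannot be told apart. Each p-value sets a group difference against the spread between these libraries.

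The promoters of the genes on which the results turn are shown because the late cell cycle genes share a known layout. Each window runs from 250 bases before to 50 bases after a transcription start in RefSeq (GRCm38.p6), and was found for 32 of the 40 genes, in 36 windows. Both strands were searched for 4 motifs, and capitals mark every match. The CHR was searched as TTTGAA and in the variant form TTCGAA. The CCAAT box was searched as the letters CCAAT. The E2F site was searched in 4 forms, of which the first was TTCCCGC, the next was the form written TTCGCGC, the next was the form written TTGCCGC and the last was the form written TTGGCGC. The last motif was the paired core of a p53 site. The p53 core pair, added after the windows had been read, is a CATG core repeated after a short spacer. Matches of different motifs overlapped in 2 of the 36 windows. The first 3 windows belong to genes called higher after depletion, the next pair to the genes with the lowest p among the members in Cx3cr1 Cx43-/- nodes, then come the centromeric histone gene that fell and the p21 gene that rose.
Cdk1, chr10:69352863-69353162, minus strand: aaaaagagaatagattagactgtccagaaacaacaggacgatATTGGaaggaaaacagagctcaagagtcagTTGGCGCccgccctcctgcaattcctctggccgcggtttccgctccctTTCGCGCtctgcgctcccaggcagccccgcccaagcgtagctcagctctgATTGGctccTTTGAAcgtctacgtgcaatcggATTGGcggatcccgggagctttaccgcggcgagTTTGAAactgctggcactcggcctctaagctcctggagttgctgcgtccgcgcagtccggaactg
Ube2c, chr2:164769679-164769978, plus strand: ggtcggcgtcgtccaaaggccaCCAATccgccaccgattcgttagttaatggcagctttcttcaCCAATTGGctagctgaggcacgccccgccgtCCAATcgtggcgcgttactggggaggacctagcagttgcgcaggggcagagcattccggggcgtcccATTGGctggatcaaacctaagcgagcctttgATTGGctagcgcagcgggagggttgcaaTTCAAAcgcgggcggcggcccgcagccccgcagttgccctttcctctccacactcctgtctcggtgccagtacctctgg
Birc5, chr11:117848987-117849286, plus strand: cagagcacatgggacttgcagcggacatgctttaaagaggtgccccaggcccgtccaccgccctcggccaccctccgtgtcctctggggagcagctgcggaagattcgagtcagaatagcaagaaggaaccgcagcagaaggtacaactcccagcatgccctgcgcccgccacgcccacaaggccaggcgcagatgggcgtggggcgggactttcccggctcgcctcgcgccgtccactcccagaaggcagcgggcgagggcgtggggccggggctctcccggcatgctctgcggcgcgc
Top2a, chr11:99024140-99024439, minus strand: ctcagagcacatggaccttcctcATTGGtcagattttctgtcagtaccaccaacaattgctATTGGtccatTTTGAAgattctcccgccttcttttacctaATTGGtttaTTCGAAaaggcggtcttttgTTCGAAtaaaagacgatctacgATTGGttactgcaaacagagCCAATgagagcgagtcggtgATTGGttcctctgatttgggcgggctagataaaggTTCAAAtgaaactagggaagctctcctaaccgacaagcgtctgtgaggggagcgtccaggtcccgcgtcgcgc
Mki67, chr7:135716330-135716629, minus strand: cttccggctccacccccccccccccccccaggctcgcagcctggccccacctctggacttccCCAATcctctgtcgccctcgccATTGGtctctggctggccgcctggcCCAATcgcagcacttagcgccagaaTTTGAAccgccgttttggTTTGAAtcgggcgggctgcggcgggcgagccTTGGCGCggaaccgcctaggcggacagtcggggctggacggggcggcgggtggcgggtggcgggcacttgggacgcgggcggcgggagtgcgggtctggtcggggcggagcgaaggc
Cenpa, chr5:30666636-30666935, plus strand: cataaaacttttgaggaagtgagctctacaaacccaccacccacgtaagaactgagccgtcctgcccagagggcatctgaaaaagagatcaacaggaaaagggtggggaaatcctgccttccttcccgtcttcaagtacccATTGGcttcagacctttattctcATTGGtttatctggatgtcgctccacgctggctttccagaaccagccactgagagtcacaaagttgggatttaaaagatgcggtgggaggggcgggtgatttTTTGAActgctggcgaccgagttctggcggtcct
Cdkn1a, chr17:29090729-29091028, plus strand: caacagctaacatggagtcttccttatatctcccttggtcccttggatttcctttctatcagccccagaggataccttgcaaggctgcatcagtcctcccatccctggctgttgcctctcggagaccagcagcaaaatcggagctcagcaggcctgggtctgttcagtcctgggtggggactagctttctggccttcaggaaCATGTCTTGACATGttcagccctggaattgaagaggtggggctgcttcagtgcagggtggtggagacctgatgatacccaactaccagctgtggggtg

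Of the 20 windows of 19 mitotic genes, 16 (80.0%) held a CHR and 18 (90.0%) a CCAAT box, and 16 (80.0%) held both. Among all 32544 RefSeq windows of that length the shares were 19.1%, 37.4% and 7.5%. The 16 windows of the 13 other members held a CHR in 2 (12.5%), a CCAAT box in 11 (68.8%) and an E2F site in 7 (43.8%), against an E2F share of 9.64% in all windows and 15.0% in the mitotic windows. Mcm3, Mcm5, Mcm6 and Mcm7 were among the members with an E2F site. The Cenpa window holds both a CHR and CCAAT boxes, as do those of Cdk1, Ube2c, Top2a and Mki67. After depletion Cenpa was called lower, Cdk1 and Ube2c higher, and Top2a and Mki67 were not called. The Birc5 window shows none of the searched letters. Of the 2 Cdkn1a windows, the upstream one, printed here, holds the p53 core pair, and the other, at chr17:29093519-29093818, holds none of the searched motifs. No other member window holds the pair, which was found in 0.624% of all windows. Since the pair was added after the windows had been read, its rarity cannot serve as evidence for a p53 site. Other forms of the p53 core were not searched, so windows without the pair may still hold a p53 site.

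After macrophage depletion the cell cycle genes did not move as one. All 3 D-type cyclins, the inhibitor Cdkn1b and the centromeric histone gene Cenpa fell, while the inhibitor Cdkn1a and the late genes Birc5, Ube2c and Cdk1 rose. This is 4 genes higher and 5 lower of the 37 members that reached 1 CPM in at least 3 libraries. Over all 12925 genes tested, 3.23% were called higher and 33.0% lower, a lopsided background in which the median gene changed by -0.49 on the log2 scale. The median member changed by 0.12, with 21 values above 0 and 16 below. The depleted libraries lay wholly above the controls for 6 members and wholly below for 5, beside 3.61% and 38.0% of all genes. Ccnb1, Bub1 and Cenpe did not reach the filter and were not tested. Calls are limma tests on log2(CPM + 0.5) over 9 libraries with a Benjamini-Hochberg adjusted p under 0.05, and fold values are ratios of group means.

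**Figure D1:**
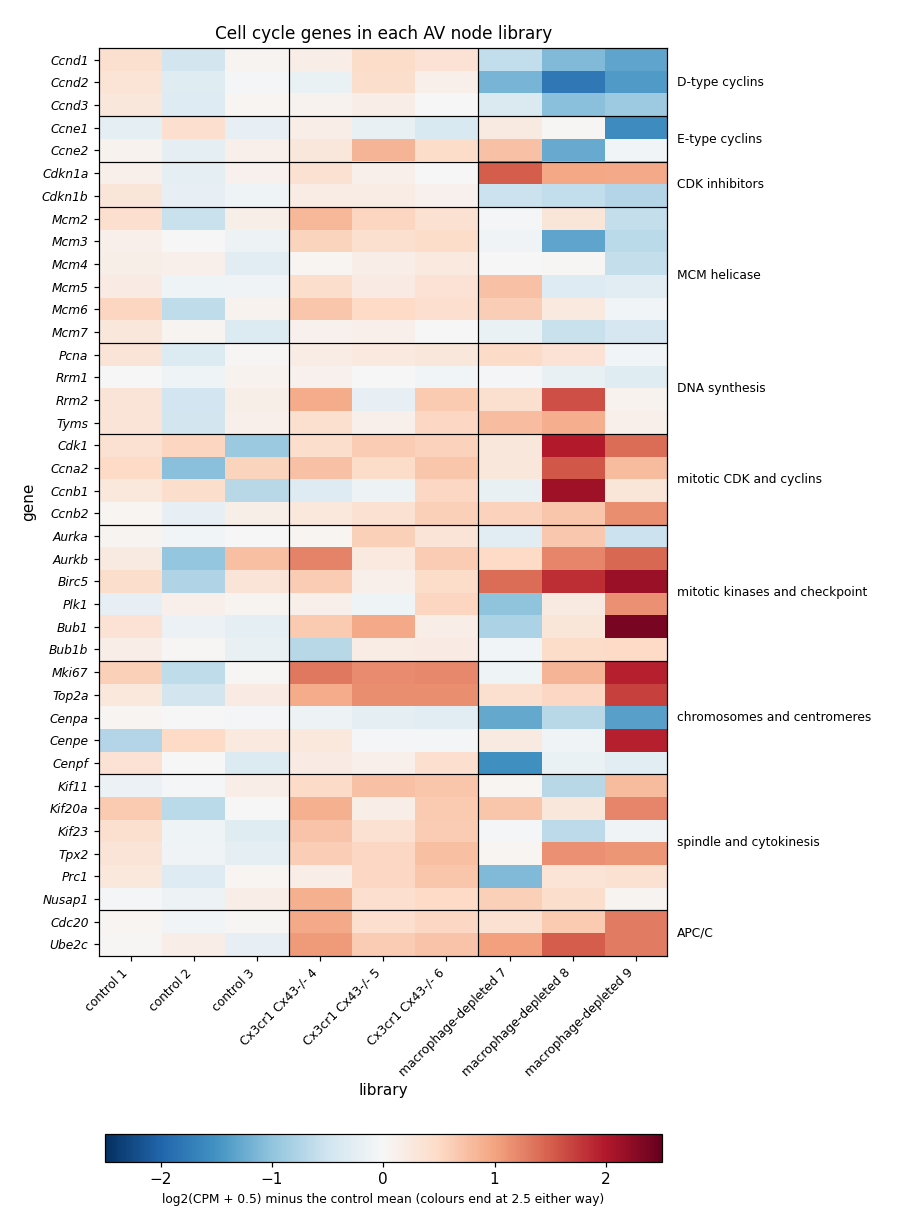
Each of the 40 cell cycle genes (rows, grouped by role) in each of the 9 libraries (columns), coloured by its log2(CPM + 0.5) minus the mean of the 3 control libraries. The D-type cyclins, Cdkn1b and Cenpa are blue in all 3 depleted libraries, and Cdkn1a, Birc5 and Ube2c are red in all 3. Depleted replicates 9 and 8 hold the highest value of 12 and 6 of the 23 mitotic genes, which was not counted over all genes.

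Ccnd2, a D-type cyclin that partners CDK4 and CDK6, stood at 73.0, 46.7 and 55.8 CPM in controls, 51.4, 78.6 and 63.1 CPM in Cx3cr1 Cx43-/- nodes and 25.3, 16.3 and 21.2 CPM in depleted nodes. The 3 depleted libraries lay below all 6 others. The mean fell 2.79-fold, from 58.5 ± 13.3 to 20.9 ± 4.53 CPM (SD, n = 3 each), a log2 change of -1.46 with an SE of 0.23 (limma adjusted p = 6.5e-05). Ccnd1, the growth-factor-responsive member, stood at 28.4, 15.3 and 22.4 CPM in controls, 24.0, 29.4 and 27.6 CPM in Cx3cr1 Cx43-/- nodes and 13.8, 9.63 and 8.25 CPM in depleted nodes. Its depleted libraries again lay below all others, with a log2 change of -1.01 with an SE of 0.25 (limma adjusted p = 0.00395). Ccnd3 stood at 33.8, 21.9 and 28.4 CPM in controls, 29.5, 31.0 and 27.7 CPM in Cx3cr1 Cx43-/- nodes and 21.2, 13.0 and 14.5 CPM in depleted nodes. Depleted replicate 7, at 21.2 CPM, lay just under control replicate 2, at 21.9 CPM, and the log2 change was -0.78 (SE 0.23, limma adjusted p = 0.0135). The Ccnd3 call was lost without control replicate 1 (adjusted p = 0.0884), control replicate 3 (0.0529) or depleted replicate 8 (0.0615). Summed, the D-type cyclins were at 83.9 to 135 CPM in controls and 38.9 to 60.3 CPM after depletion.

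The E-type cyclins, which carry CDK2 into S phase, were not called in either direction. Ccne1 stood at 0.77, 1.49 and 0.78 CPM in controls, 1.16, 0.80 and 0.63 CPM in Cx3cr1 Cx43-/- nodes and 1.23, 1.0 and 0 CPM in depleted nodes. Its log2 change after depletion was -0.44 (SE 0.48, limma adjusted p = 0.484). Ccne2 stood at 1.04, 0.74 and 1.08 CPM in controls, 1.26, 2.09 and 1.49 CPM in Cx3cr1 Cx43-/- nodes and 1.90, 0.10 and 0.88 CPM in depleted nodes. For Ccne1, 2 depleted libraries lay within the control range and 1 below it, while those of Ccne2 lay above, within and below it. Ccne2 changed by -0.20 (SE 0.46, limma adjusted p = 0.749).

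On the deposited scale the 2 CDK inhibitors parted. Cdkn1a, which encodes p21 and is a classical p53 target, stood at 34.7, 27.2 and 34.2 CPM in controls, 41.4, 34.7 and 31.8 CPM in Cx3cr1 Cx43-/- nodes and 92.4, 62.4 and 61.5 CPM in depleted nodes. All depleted libraries lay above all others, and the mean rose 2.25-fold (log2 change 1.14, SE 0.22, limma adjusted p = 0.000432). Cdkn1b, which encodes p27, stood at 41.0, 28.9 and 30.8 CPM in controls, 37.6, 37.6 and 36.0 CPM in Cx3cr1 Cx43-/- nodes and 22.8, 21.4 and 19.9 CPM in depleted nodes. Its log2 change was -0.63 (SE 0.21, limma adjusted p = 0.0233), beside -0.49 for the median gene. The call was lost without control replicate 1 (-0.47, adjusted p = 0.151) or control replicate 3 (adjusted p = 0.0569) and with only the 2 groups in the fit (0.0853). Rescaled as described below, Cdkn1b changed by -0.30 (common total, limma adjusted p = 0.142) and -0.14 (median-of-ratios, 0.482), and was not called. The ratio of Cdkn1a to Cdkn1b within a library cannot be altered by a single scaling factor per library. It was 0.847, 0.943 and 1.11 in controls, 1.10, 0.923 and 0.884 in Cx3cr1 Cx43-/- nodes and 4.06, 2.92 and 3.09 in depleted nodes. The ratio of Cdkn1a to the summed D-type cyclins was 0.257 to 0.325 in controls and 1.40 to 1.60 after depletion. Both ratios separate the depleted libraries from all 6 others. That follows from Cdkn1a lying above and the divisors below in every depleted library, so it adds no further evidence.

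**Figure D2:**
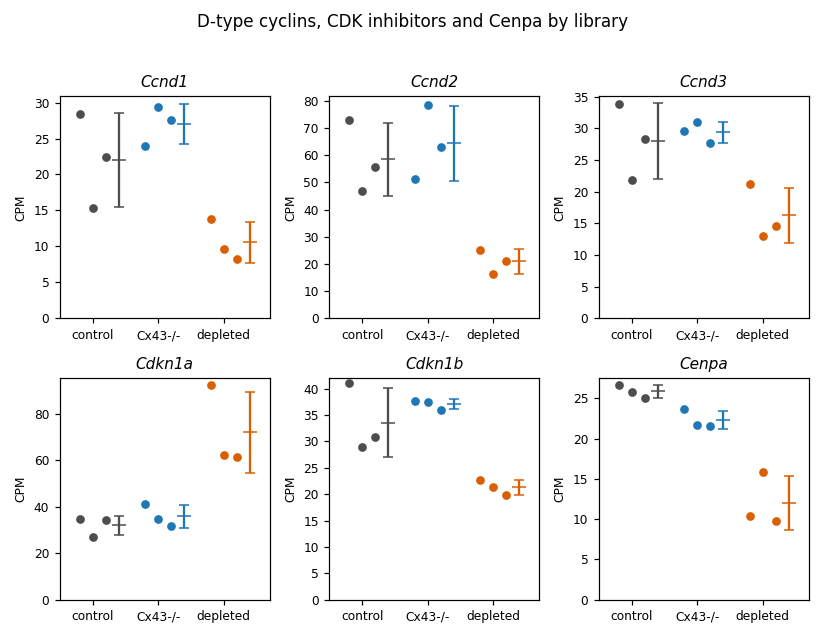
CPM of the D-type cyclins, the CDK inhibitors and Cenpa in each library (points), with the group mean and SD (bars), for control, Cx3cr1 Cx43-/- (axis label Cx43-/-) and macrophage-depleted nodes, 3 libraries each. The depleted points of Ccnd1, Ccnd2, Ccnd3, Cdkn1b and Cenpa lie below every other point, and those of Cdkn1a lie above, between 61.5 and 92.4 CPM.

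The replication genes among the members gave no call after depletion on the deposited scale. None of the 6 subunits of the MCM helicase, which unwinds DNA at the fork, was called by limma (0 higher and 1 lower at an unadjusted p under 0.05), and their sum was 36.0 to 48.7 CPM in controls and 28.6 to 46.0 CPM after depletion. Mcm3 had the smallest p among them, with 6.29, 5.76 and 5.22 CPM in controls, 8.62, 7.78 and 8.09 CPM in Cx3cr1 Cx43-/- nodes and 5.37, 2.01 and 3.40 CPM in depleted nodes. Depleted replicate 7 lay among the controls, and the log2 change was -0.69 (SE 0.31, limma adjusted p = 0.0814). Mcm7 changed by -0.38 (SE 0.29, limma adjusted p = 0.303), and Mcm2, Mcm4, Mcm5 and Mcm6 by -0.19 to 0.27. Mcm6 stood at 11.3, 4.80 and 8.22 CPM in controls and 12.1, 9.23 and 7.25 CPM in depleted nodes, which overlap. Mcm2 ranged from 3.07 to 6.51 CPM in controls and from 2.97 to 5.93 CPM in depleted nodes, Mcm4 from 9.40 to 12.6 and 7.33 to 11.7 CPM, Mcm5 from 3.89 to 4.96 and 3.28 to 7.42 CPM, and Mcm7 from 4.40 to 7.06 and 3.72 to 5.07 CPM.

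Of the 4 genes of DNA synthesis, none was called by limma after depletion, and none had an unadjusted p under 0.05. Pcna, the sliding clamp of DNA polymerase, stood at 14.3, 8.76 and 11.5 CPM in controls, 13.0, 13.4 and 13.9 CPM in Cx3cr1 Cx43-/- nodes and 15.8, 14.7 and 10.8 CPM in depleted nodes (log2 change 0.26, SE 0.25, limma adjusted p = 0.423). Tyms, thymidylate synthase, stood at 2.88, 1.45 and 2.44 CPM in controls, 3.06, 2.45 and 3.36 CPM in Cx3cr1 Cx43-/- nodes and 4.09, 4.57 and 2.45 CPM in depleted nodes (log2 change 0.61, SE 0.35, limma adjusted p = 0.168). Both had depleted replicate 9 within the control range. The ribonucleotide reductase subunit gene Rrm2 was at 1.10 to 2.29 CPM in controls and at 2.42, 6.31 and 1.86 CPM in depleted nodes, with replicate 8 apart. Its partner Rrm1, made through the cell cycle, was at 14.4 to 16.6 CPM in controls and 12.5 to 15.1 CPM after depletion.

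Of the 20 mitotic genes tested, 3 were called higher and 1 lower. Cdk1, the kinase that drives entry into mitosis, stood at 1.95, 2.25 and 0.49 CPM in controls, 2.05, 2.43 and 2.32 CPM in Cx3cr1 Cx43-/- nodes and 1.78, 6.98 and 4.45 CPM in depleted nodes. Depleted replicate 7 lay inside the control range, so the groups overlapped, and the log2 change was 1.22 (SE 0.43, limma adjusted p = 0.0313). That call was lost when control replicate 3 was left out (0.76, adjusted p = 0.208), when depleted replicate 8 (0.84, adjusted p = 0.156) or 9 (1.13, adjusted p = 0.114) was, and with no filter on low genes (adjusted p = 0.163). Its partner Ccnb2 stood at 1.14, 0.87 and 1.26 CPM in controls, 1.40, 1.55 and 1.90 CPM in Cx3cr1 Cx43-/- nodes and 1.85, 2.07 and 3.02 CPM in depleted nodes. The depleted libraries all lay above the controls, but the log2 change of 0.81 (SE 0.37, limma adjusted p = 0.0875) was not called. Ccna2, cyclin A2, stood at 2.02, 0.37 and 2.13 CPM in controls and 1.69, 4.78 and 2.60 CPM in depleted nodes (log2 change 0.88, SE 0.43, limma adjusted p = 0.11). Ccnb1, cyclin B1, was at 0.48, 0.60 and 0 CPM in controls, 0.15, 0.25 and 0.66 CPM in Cx3cr1 Cx43-/- nodes and 0.22, 3.05 and 0.51 CPM in depleted nodes, with only replicate 8 high.

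Birc5, which encodes survivin of the chromosomal passenger complex, gave the largest fold among the members tested. It stood at 1.34, 0.30 and 1.19 CPM in controls, 1.61, 0.97 and 1.36 CPM in Cx3cr1 Cx43-/- nodes and 3.09, 4.35 and 5.57 CPM in depleted nodes. Every depleted library was above all 6 others, and its mean rose 4.60-fold (log2 change 1.80, SE 0.40, limma adjusted p = 0.00157). The other passenger and spindle checkpoint genes were uneven. Aurkb, the kinase of the same complex, stood at 0.64, 0 and 1.15 CPM in controls, 1.83, 0.66 and 1.02 CPM in Cx3cr1 Cx43-/- nodes and 0.88, 1.78 and 2.16 CPM in depleted nodes (log2 change 1.05, SE 0.48, limma adjusted p = 0.0852). Its groups overlapped at replicate 7. Bub1, a checkpoint kinase, was at 0.24 to 0.61 CPM in controls and at 0, 0.56 and 3.97 CPM in depleted nodes. The gene of the centrosomal kinase Aurka was at 0.87 to 1.01 CPM in controls and 0.49 to 1.78 CPM in depleted nodes, that of the mitotic kinase Plk1 at 0.67 to 0.97 and 0.17 to 2.46 CPM, and that of the checkpoint protein Bub1b at 1.27 to 1.78 and 1.43 to 2.37 CPM. These ranges overlap in all 3.

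The 2 members that act with the anaphase-promoting complex (APC/C) lay above every control library after depletion. Ube2c, its ubiquitin-conjugating enzyme, stood at 0.64, 0.76 and 0.47 CPM in controls, 1.85, 1.24 and 1.32 CPM in Cx3cr1 Cx43-/- nodes and 1.78, 2.69 and 2.25 CPM in depleted nodes. It rose 3.59-fold in depleted nodes (log2 change 1.28, SE 0.38, limma adjusted p = 0.0127), and the adjusted p was 0.0556 without control replicate 3. Cdc20, an activator of the complex, stood at 1.36, 1.21 and 1.33 CPM in controls, 2.98, 1.92 and 2.09 CPM in Cx3cr1 Cx43-/- nodes and 1.83, 2.34 and 3.91 CPM in depleted nodes. The depleted values, all above the controls, gave a log2 change of 0.78 with an SE of 0.36 (limma adjusted p = 0.0971), which was not called.

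The chromosome genes split. Mki67, the usual proliferation marker, stood at 3.02, 0.99 and 1.88 CPM in controls and 1.66, 3.66 and 8.45 CPM in depleted nodes. Replicate 7 lay inside the control range, below control replicates 1 and 3. The log2 change of 0.90 (SE 0.42, limma adjusted p = 0.0934) was not called. Top2a, the topoisomerase that untangles replicated chromosomes, stood at 2.59, 1.36 and 2.44 CPM in controls and 2.90, 3.18 and 7.92 CPM in depleted nodes. Its depleted libraries all lay above the controls, with a log2 change of 0.88 with an SE of 0.36 (limma adjusted p = 0.0577). Cenpa, which encodes the histone H3 variant of the centromere, stood at 26.6, 25.8 and 25.1 CPM in controls, 23.6, 21.7 and 21.6 CPM in Cx3cr1 Cx43-/- nodes and 10.4, 15.9 and 9.78 CPM in depleted nodes. It fell 2.15-fold with no overlap (log2 change -1.11, SE 0.23, limma adjusted p = 0.000893). Cenpf, a kinetochore protein gene, stood at 3.70, 2.79 and 2.08 CPM in controls and 0.64, 2.42 and 2.26 CPM in depleted nodes (log2 change -0.65, SE 0.38, limma adjusted p = 0.179). Cenpe, a kinetochore motor gene, was at 0.14 to 1.0 CPM in controls and at 0.74, 0.50 and 3.60 CPM in depleted nodes.

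None of the 6 spindle and cytokinesis genes was called by limma after depletion, and none had an unadjusted p under 0.05. Tpx2, a spindle assembly factor, stood at 1.78, 1.21 and 1.06 CPM in controls, 2.31, 2.11 and 2.58 CPM in Cx3cr1 Cx43-/- nodes and 1.40, 3.53 and 3.40 CPM in depleted nodes (log2 change 0.77, SE 0.38, limma adjusted p = 0.112). The kinesin gene Kif20a changed by 0.73 (SE 0.43, limma adjusted p = 0.184), from 0.28 to 1.44 CPM in controls to 1.0 to 2.40 CPM. The gene of the microtubule-binding protein Nusap1 changed by 0.36 (SE 0.38, limma adjusted p = 0.465), from 0.86 to 1.17 CPM in controls to 1.05 to 1.74 CPM. Depleted libraries overlapped controls in each of these. The motor genes Kif11, which separates spindle poles, and Kif23, of the midzone, and the midzone bundler gene Prc1 changed by 0.05, -0.26 and -0.13. Their ranges in controls and depleted nodes were 1.01 to 1.38 and 0.54 to 2.40 CPM for Kif11, 0.89 to 1.76 and 0.58 to 1.17 CPM for Kif23, and 1.75 to 2.85 and 0.81 to 3.13 CPM for Prc1.

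**Figure D3:**
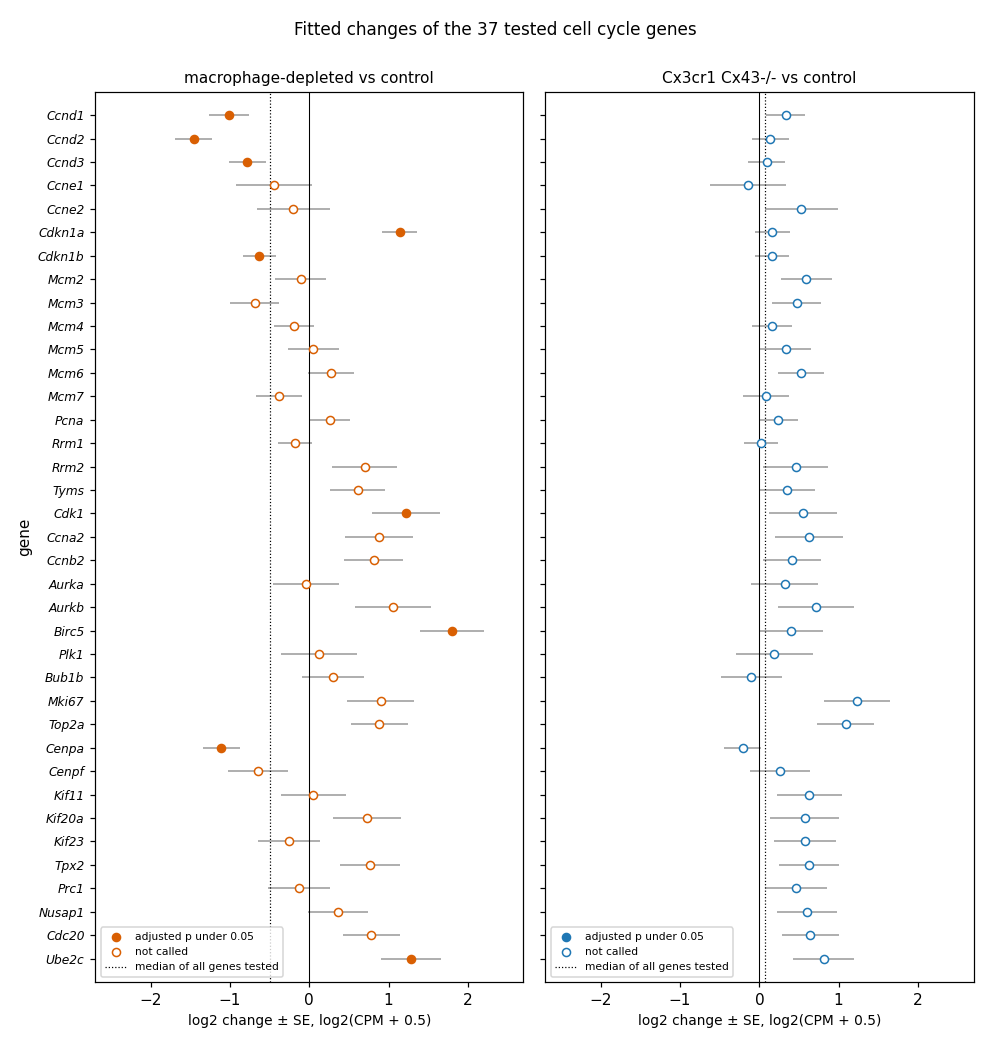
Fitted log2 change and its SE for the 37 tested cell cycle genes, depleted against control (left) and Cx3cr1 Cx43-/- against control (right), with filled points for an adjusted p under 0.05 and a dotted line at the median of all 12925 genes tested. On the left 4 points are filled above 0 and 5 below, and on the right no point is filled and 34 of 37 lie above 0.

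Rescaling the libraries changed which of these genes were called. All 34198 symbols together took a smaller share of 2 of the 3 depleted libraries than of any other library. The 3 other scalings run were a common total over all 34198 symbols, median-of-ratios factors, and quantile normalization. With the common total, 9 members were called higher and 3 lower (8.79% and 19.6% of all genes), and with median-of-ratios 12 higher and 3 lower (13.0% each way, 1685 and 1675 genes, where the deposited scale gave 417 and 4261). Quantile normalization called 17 higher and 3 lower (12.2% and 14.0% of all genes). The median of all genes stood at -0.18 with the common total and -0.04 with median-of-ratios. Cdkn1a, Birc5, Ube2c and Cdk1 stayed called higher and Ccnd1, Ccnd2 and Cenpa lower under all 3. Ccnd3 (adjusted p = 0.0605, 0.194 and 0.139) and Cdkn1b (0.142, 0.482 and 0.286) lost their calls under all 3. Top2a (1.19, adjusted p = 0.0427), Ccnb2 (1.09, 0.0359), Cdc20 (1.06, 0.0493), Tyms (0.90, 0.036) and Pcna (0.58, 0.0217) were called higher with the common total, and also under the other 2 scalings. Mcm6 (0.73, adjusted p = 0.0282), Ccna2 (1.30, 0.0436) and Tpx2 (1.18, 0.0383) were called with median-of-ratios and with quantile normalization, and not with the common total. Mki67 (1.43, adjusted p = 0.0312), Aurkb (1.48, 0.0244), Kif20a (1.25, 0.0323), Rrm2 (1.19, 0.0404) and Nusap1 (0.93, 0.0482) were called higher with quantile normalization and under neither of the other 2.

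**Figure D4:**
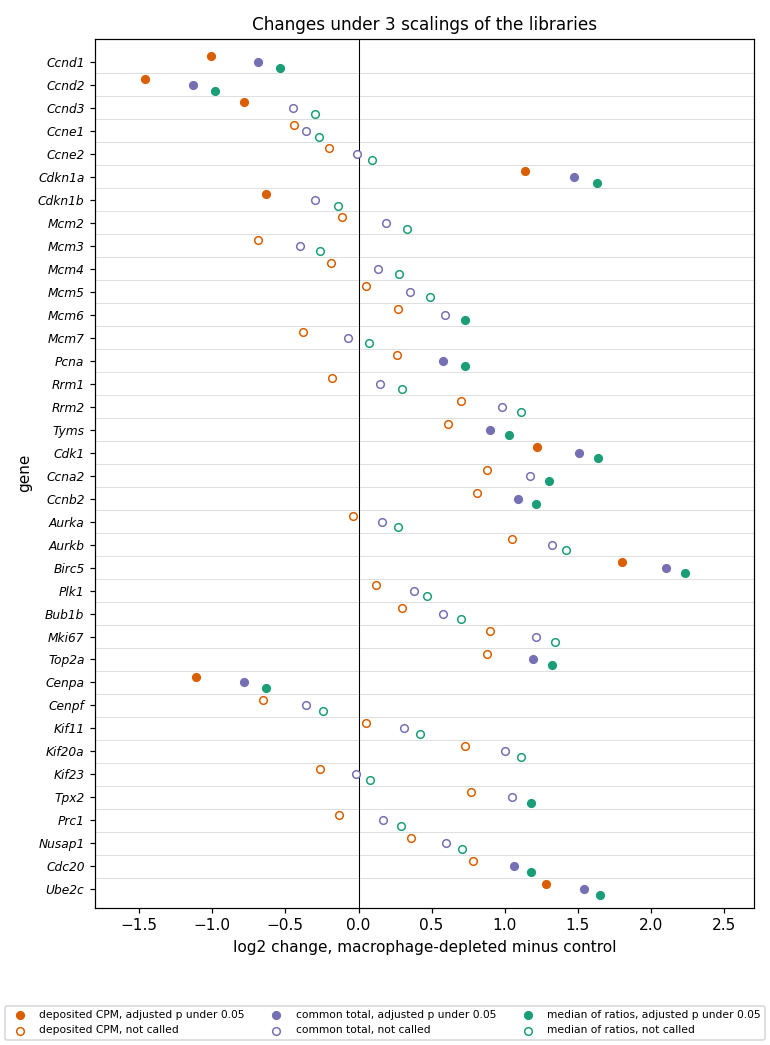
Log2 change of each tested member, depleted minus control, with the deposited CPM, a common total over all 34198 symbols, and median-of-ratios factors. Filled points have an adjusted p under 0.05. Every point moves right with rescaling; Ccnd1, Ccnd2 and Cenpa stay filled below 0 and Cdkn1a, Birc5, Ube2c and Cdk1 stay filled above 0.

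The mitotic genes differed among the 3 depleted libraries. The 22 mitotic genes other than Cenpa summed to 32.9, 22.5 and 26.2 CPM in controls, 44.7, 42.0 and 46.7 CPM in Cx3cr1 Cx43-/- nodes and 29.2, 53.7 and 69.5 CPM in depleted nodes. In that sum depleted replicate 7 was within the control range and replicates 8 and 9 above all other libraries. With Cenpa included, the sums were 59.5, 48.3 and 51.3 CPM in controls and 68.4, 63.7 and 68.3 CPM in Cx3cr1 Cx43-/- nodes. The depleted sums were then 39.6, 69.5 and 79.3 CPM. Replicate 7 thus lay below every control once Cenpa was counted, and replicates 8 and 9 stayed above all other libraries. Of all 23 mitotic genes, replicate 9 held the highest of the 9 values for 12 and replicate 8 for 6. Within the depleted group, replicate 7 was the lowest for 16. Such counts were not made over all genes, so they stand without a background share. With replicate 7 left out, 10 members were called higher and 6 lower, where the full fit gave 4 and 5. Over all 12925 genes that fit called 374 higher and 5900 lower, where the full fit gave 417 and 4261. Mki67 (1.40, limma adjusted p = 0.00996), Tpx2 (1.12, 0.0155), Top2a (1.12, 0.023), Cdc20 (0.98, 0.0364), Aurkb (1.33, 0.0441) and Ccna2 (1.17, 0.0474) were then among those higher, and Mcm3 (-1.0, 0.00974) among those lower. Without control replicate 3 the member counts were 2 and 3 (312 and 2884 of all genes), and without control replicate 1 they were 4 and 3 (348 and 2316). The median coefficient of variation of the mitotic genes was 28.4% in controls, 22.6% in Cx3cr1 Cx43-/- nodes and 52.5% in depleted nodes. Over the 3556 tested genes with a mean of 0.5 to 5 CPM it was 31.8, 20.7 and 51.5%, close to the mitotic genes in each group.

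**Figure D5:**
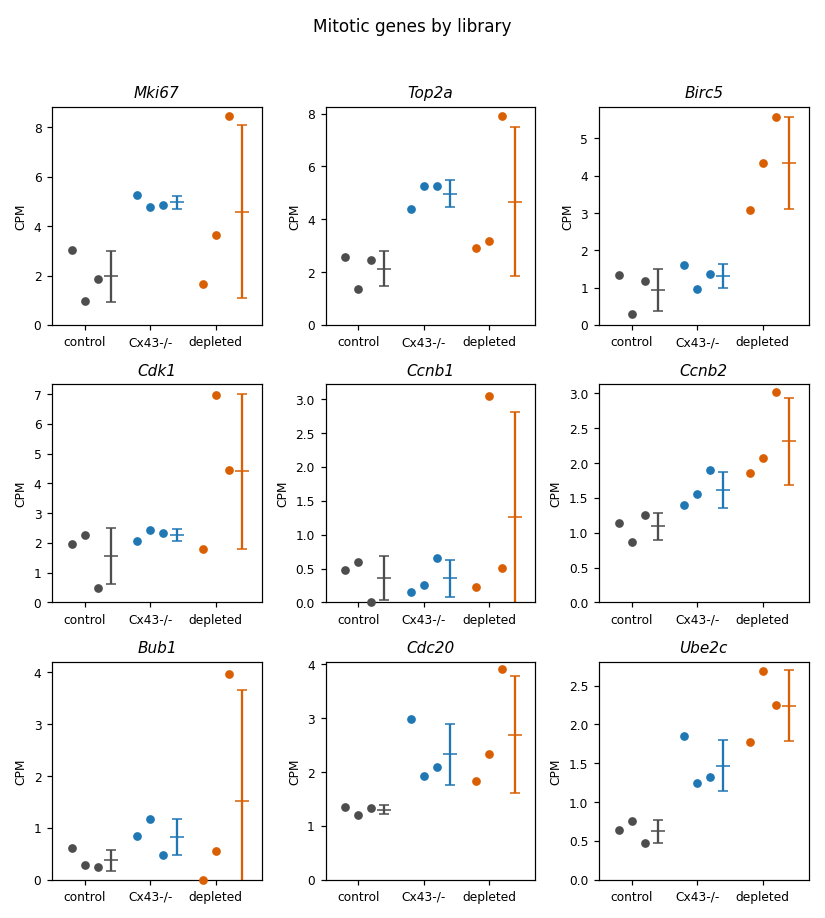
CPM of mitotic genes in each library (points) with the group mean and SD (bars, cut at 0) for control, Cx3cr1 Cx43-/- and depleted nodes, 3 libraries each. Birc5 and Ube2c lie above all controls in each depleted library, while Mki67 and Top2a lie close together in the Cx3cr1 Cx43-/- nodes (4.77 to 5.26 and 4.39 to 5.27 CPM) and spread widely after depletion.

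Markers of other cell types were also set beside the shares of all genes called after depletion, 3.23% higher and 33.0% lower. The 12 monocyte and neutrophil markers summed to 37.6 to 52.0 CPM in controls and 85.2 to 109 CPM in depleted nodes, and 3 of the 6 that could be tested were called higher. Chi3l3, a chitinase-like gene of monocytes and activated macrophages, went from at most 0.03 CPM in controls to 12.43 to 28.70 CPM, while the neutrophil granule genes Mpo and Elane were listed at 0 in all 9 libraries. Of the resident macrophage markers, 10 of 13 were called lower. Node markers had 7 of 9 tested called lower, with sums of 435 to 503 CPM in controls and 97.0 to 155 CPM after depletion. Of the mast cell markers 5 of 5 were called lower, with sums of 12.7 to 31.6 CPM in controls and 3.21 to 4.08 CPM after depletion, of the Schwann cell markers 3 of 5, of the endothelial markers 3 of 8, of the smooth muscle and pericyte markers 4 of 7 (with 1 higher) and of the cardiomyocyte markers 2 of 8. The endothelial and cardiomyocyte counts lay near the share of all genes called lower. Of the 9 fibroblast markers 1 was called higher. Adipocyte markers summed to 241 CPM in depleted replicate 8, the library with the highest Cdk1, Ccnb1, Ccna2 and Rrm2, and to at most 70.8 CPM in any other. Lymphocyte markers summed to at most 4.48 CPM in every library. Their part in the cell cycle values was not tested.

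Lists of genes that work around the members are read beside the shares of all genes, 3.23% higher and 33.0% lower. Of 22 further regulators of the G1/S step, 18 were tested after depletion, with 1 higher and 4 lower and a median of -0.35. Myc, a growth-driving transcription factor, stood at 3.54, 2.45 and 3.51 CPM in controls and 23.7, 20.7 and 13.9 CPM in depleted nodes, with no overlap (log2 change 2.42, SE 0.29, limma adjusted p = 2e-06). Its relative Mycn fell (-1.62, SE 0.41, limma adjusted p = 0.00453), as did Rbl2, which encodes the p130 pocket protein of the DREAM complex (-1.08, SE 0.22, limma adjusted p = 0.000673). Cdk2 fell by 0.68 on the deposited scale (limma adjusted p = 0.0458) but was not called after either rescaling. Of 38 replication genes, 35 were tested, with 3 higher, 2 lower and a median of -0.25. Mcm10, a replication initiation factor, stood at 0.29, 0 and 0.38 CPM in controls and 2.05, 1.65 and 1.99 CPM in depleted nodes (log2 change 1.77, SE 0.44, limma adjusted p = 0.00365), and Clspn, of the replication checkpoint, rose by 1.44 (adjusted p = 0.0134). Gins3 (-1.36, adjusted p = 0.0211) and the dUTPase gene Dut (-0.66, adjusted p = 0.0302) were called lower on the deposited scale alone.

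Of 60 further mitotic genes 33 were tested, with 2 higher, 2 lower and a median of 0.23. Tacc3, a spindle protein gene, stood at 2.53, 1.38 and 1.97 CPM in controls and 3.90, 4.32 and 4.68 CPM in depleted nodes (log2 change 0.99, SE 0.33, limma adjusted p = 0.0214). Spc24, of the kinetochore, rose by the same amount (adjusted p = 0.0406). The condensin gene Ncapd2 (-0.79, limma adjusted p = 0.014) and the phosphatase gene Cdc25b (-0.94, adjusted p = 0.0175) fell, and neither was called after rescaling. On the common total 6 of these genes were called higher, and with median-of-ratios 9.

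All 20 listed p53 and DNA damage targets were tested beside Cdkn1a, with 4 higher, 3 lower and a median of -0.20. Gadd45g, a stress-induced growth arrest gene, stood at 19.0, 16.9 and 16.9 CPM in controls and 222, 96.7 and 70.7 CPM in depleted nodes (log2 change 2.67, SE 0.32, limma adjusted p = 2e-06). Gadd45b rose by 1.77 (SE 0.32, limma adjusted p = 0.000299) and the antiproliferative gene Btg2 by 1.08 (SE 0.25, adjusted p = 0.00247). Ccng1, another p53 target, went down, from 302 to 355 CPM in controls to 130 to 230 CPM (log2 change -0.84, SE 0.23, limma adjusted p = 0.00661). With the common total and with median-of-ratios the list had 6 higher and 2 lower, with medians of 0.13 and 0.27.

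Nodes lacking connexin 43 in Cx3cr1-expressing cells gave no called member, in either direction, by limma. Of all genes 0.0% were called higher and 0.00774% lower, which is 1 gene. At an unadjusted p under 0.05, 3 of the 37 tested members were higher and 0 lower, and over all 12925 genes 167 were higher and 24 lower. The values still leaned upward: 34 of 37 members lay above 0, with a median of 0.41, beside 0.07 for all genes, of which 8450 of 12925 (65.4%) lay above 0. The libraries did not overlap for 10 members that were higher and 1 that was lower, beside 5.94% and 3.0% of all genes. An exact permutation test of 3 against 3 libraries cannot go below p = 0.1.

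Mki67 stood at 5.26, 4.77 and 4.85 CPM in these nodes, above all 3 controls (3.02, 0.99 and 1.88 CPM), with a mean 2.53-fold as high. Its log2 change was 1.23 (SE 0.42, limma unadjusted p = 0.00681, adjusted p = 1.0). Top2a stood at 4.39, 5.25 and 5.27 CPM, again above all controls and 2.33-fold as high (log2 change 1.09, SE 0.36, limma unadjusted p = 0.00586, adjusted p = 1.0). Ube2c, at 1.24 to 1.85 CPM, had a log2 change of 0.81 (SE 0.38, limma unadjusted p = 0.0458, adjusted p = 1.0). The other 7 members whose 3 libraries all lay above the controls were Ccne2, Mcm3, Ccnb2, Kif11, Tpx2, Nusap1 and Cdc20. Kif11 was at 1.83, 2.28 and 2.19 CPM beside 1.01, 1.15 and 1.38 CPM, and Nusap1 at 2.26, 1.48 and 1.59 CPM beside 0.94, 0.86 and 1.17 CPM. Cenpa was the member with all 3 libraries below the controls. The D-type cyclins and the CDK inhibitors overlapped the controls, with log2 changes of 0.09 to 0.33.

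The summed mitotic genes, Cenpa left out, were at 42.0 to 46.7 CPM in these nodes and 22.5 to 32.9 CPM in controls, with no overlap. With Cenpa included the sums were 63.7 to 68.4 CPM and 48.3 to 59.5 CPM, again with no overlap. Control replicate 2 held the lowest of all 9 values for 9 of the 23 mitotic genes, a count that was not made over all genes. Red blood cell markers were also at higher values: the 7 erythroid markers summed to 17.7 to 31.5 CPM against 4.70 to 16.4 CPM in controls. The 4 that could be tested had every library above the controls, beside 5.94% of all genes. By limma 0 of the 4 were called (4 higher at an unadjusted p under 0.05). Klf1, a transcription factor gene of red cell precursors, stayed at or below 0.16 CPM in both groups. Fibroblast markers summed to 3684 to 3825 CPM against 2823 to 3329 CPM, with 5 of 9 higher in every library (5.94% of all genes). Resident macrophage markers summed to 397 to 532 CPM against 257 to 408 CPM. The part of these cells in the values was not tested. None of the 5 surrounding gene lists held a called gene by limma in this comparison. At an unadjusted p under 0.05, the further mitotic list had 3 higher and 0 lower of 33, led by Racgap1, a cytokinesis regulator (log2 change 1.01, SE 0.38, limma unadjusted p = 0.0147), the G1/S list 1 higher and 0 lower of 18, the p53 list 0 of 20 either way, the list of 13 quiescence and antiproliferative genes 2 higher and 1 lower, and the replication list 2 higher and 0 lower of 35, led by Uhrf1 (1.03, unadjusted p = 0.0307) and the DNA ligase gene Lig1 (0.65, unadjusted p = 0.0413).

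Set against each other directly, depleted nodes had 2 members higher and 6 lower than Cx3cr1 Cx43-/- nodes, where 2.69% and 40.7% of all genes were called. The median member changed by -0.27 and the median gene by -0.58. Cdkn1a (log2 difference 0.98, SE 0.22, limma adjusted p = 0.00138) and Birc5 (1.40, SE 0.40, adjusted p = 0.008) were higher in depleted nodes. Ccnd1 (-1.34), Ccnd2 (-1.60), Ccnd3 (-0.86), Cdkn1b (-0.78), Cenpa (-0.90) and Mcm3 (-1.17) were lower, with limma adjusted p from 2.2e-05 to 0.00577. The depleted libraries lay wholly above for 2 members and wholly below for 11, beside 3.39% and 50.6% of all genes. With the common total 2 members were higher and 5 lower (8.47% and 20.9% of all genes). With median-of-ratios scaling (13.1% and 12.9%), 3 were higher, Pcna among them (0.57, adjusted p = 0.0207), and only Ccnd1 and Ccnd2 lower. Cdk1 (0.67, adjusted p = 0.209) was called only without depleted replicate 7 (1.14, adjusted p = 0.0343) and with library quality weights (1.10, 0.00453). The difference was not called for Mki67 (-0.34, SE 0.42, limma adjusted p = 0.518), Top2a (-0.21, SE 0.36, adjusted p = 0.652) or Ube2c (0.48, SE 0.38, adjusted p = 0.314), which does not show that their levels were alike. All 3 comparisons reuse the same libraries, so their values are set side by side only.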

How the data were processed

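RNA was taken from microdissected AV nodes and made into directional libraries, per the labels' protocols. STAR 2.3.0, HTSeq 0.6.0, edgeR and the mouse build mm9 are named in the submitters' processing notes, with no roles, and the annotation and the use of strand in counting are not given in the sources used here. The authors deposited 1 table of CPM per gene symbol, rounded to 2 decimals, so no count model was used. The CPM of all symbols do not sum to the whole scale, so the denominator held other reads too.

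The 12925 genes reaching 1 CPM in 3 or more libraries were fitted on log2(CPM + 0.5) with limma 3.58.1 (trended empirical Bayes, R 4.3.3), all 9 libraries in 1 model over 3 groups, two-sided, Benjamini-Hochberg over all genes tested. A fold on this scale understates the change of low genes. The scripts were tested on simulated data. No 2 libraries held identical values. Every member is described. Full statistics go to members called on the deposited or a rescaled scale, or, in a role without calls, to up to 3 with the smallest p, and up to 4 genes with the smallest p are named per pathway list. The members and lists were chosen with earlier results of these data known. Alternatives were the pseudocount, the filter, 3 scalings, 2 variance models, fitting only the groups compared, and leaving out each library. Promoter windows come from RefSeq on GRCm38.p6, another build than the counts. Genes overlapping on opposite strands may share reads.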

Additional observations from a re-analysis of the deposited data

How the results depend on the processing

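Of the members called after depletion, 4 were higher and 5 lower. Higher counts moved to 9 with the common total, 12 with median-of-ratios, 17 with quantile normalization and 1 with a filter of 5 CPM on the mean. That filter left 13 of the 37 members to be tested, and removed Birc5, Ube2c and Cdk1. Lower counts moved to 3 with each of these scalings. Leaving out 1 library gave 2 to 10 higher and 3 to 6 lower, the extremes being those without control replicate 3 and without depleted replicate 7. The same fits called 312 to 696 higher and 2316 to 5900 lower of all 12925 genes. Cdkn1a, Birc5, Ccnd1, Ccnd2 and Cenpa kept their call in 6 of 6 such fits, Ube2c in 5, Cdkn1b in 4, Ccnd3 in 3 and Cdk1 in 3. No called value changed sign in the 16 alternatives run. Depleted against Cx3cr1 Cx43-/- nodes had 2 higher and 6 lower. Higher counts became 7 with quantile normalization and 1 with the 5 CPM filter (13 members tested). Lower counts became 2 with median-of-ratios and with quantile normalization, and 11 with library quality weights. Leaving out 1 library gave 2 to 3 members higher and 6 to 8 lower, beside 242 to 651 and 3060 to 6759 of all 12925 genes. Cx3cr1 Cx43-/- against control had 0 members called by limma on the deposited scale (3 higher and 0 lower at an unadjusted p under 0.05) and in all alternatives. Over the whole table, depletion gave 417 higher and 4261 lower genes, 1136 and 2534 with the common total, 1685 and 1675 with median-of-ratios and 1579 and 1811 with quantile normalization, 696 higher without depleted replicate 9 and 2316 lower without control replicate 1. Against Cx3cr1 Cx43-/- nodes, 348 and 5256 became 1095 and 2702, 1691 and 1671, and 1566 and 1790 with those scalings, 860 higher with quality weights, 651 higher without depleted replicate 9, and 3060 and 3494 lower without Cx3cr1 Cx43-/- replicates 5 and 6. The cause was not tested. No paired analysis was possible because the labels number the libraries 1 to 9 and the groups share no replicate number. Members under 1 CPM rest on the fewest reads, where 1 CPM stands for 51.8 to 65.0 reads. Symbols above 0 numbered 18748 in control replicate 1 and 15130 in control replicate 2, at 62.5 and 53.9 reads per CPM. They numbered 14713 in depleted replicate 8 and 15514 in depleted replicate 9, at 51.8 and 65.0 reads per CPM. What limits the values of members under 1 CPM was not tested.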

Other observations

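Of 13 quiescence and antiproliferative genes, all tested, 1 was higher and 3 were lower after depletion, with a median log2 change of -0.46 beside -0.49 for all genes, of which 3.23% were called higher and 33.0% lower. Txnip, a growth-restraining thioredoxin-binding protein gene, stood at 177, 250 and 210 CPM in controls, 400, 271 and 680 CPM in Cx3cr1 Cx43-/- nodes and 590, 747 and 371 CPM in depleted nodes. All 6 libraries of the altered groups lay above the controls, and the change after depletion was 1.38 (SE 0.29, limma adjusted p = 0.000949). In Cx3cr1 Cx43-/- nodes it was 0.99 (SE 0.29, limma unadjusted p = 0.002, adjusted p = 1.0), which was not called. Ccng2, a cyclin made in resting cells, went from 14.6 to 22.6 CPM in controls to 6.22 to 12.1 CPM after depletion (-1.16, SE 0.26, limma adjusted p = 0.00174). The antiproliferative gene Tob1 fell by 0.70 (limma adjusted p = 0.0183) on the deposited scale and was not called after rescaling.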
